A study of Ovis aries with 6 samples.

Results

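The complement genes described here were C1QA, C1QB, C1QC, C1R, C1S, C3, C7 and CFD, 8 of the 30574 genes listed in single-cell RNA counts of the ovary of Hu sheep. They were chosen by name, as the complement genes to be read across macrophages, stromal subtypes, theca, granulosa and endothelial cells, and all 8 were found in the counts. C3 stood there as LOC101108131 and was matched to its symbol by gene ID in the RefSeq annotation. Of the other 42 complement genes on a list by role, 35 were found.

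Complement is a set of plasma and tissue proteins that mark microbes, immune complexes and dying cells for removal. The hexamer C1q, made of chains from C1QA, C1QB and C1QC, binds a target and switches on the proteases C1r and C1s, which start the classical pathway. Both this pathway and the alternative pathway, which needs factor D (CFD), cut C3, the component on which the cascade converges, and C7 is a part of the membrane attack complex that ends it. Outside the liver, C1q is known as a product of tissue macrophages, while C1r, C1s and C3 are also made by fibroblasts.

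One ovary from each of 6 Hu ewes in estrus gave 1 droplet-based library. The 3 HLS ewes came from the group with litters of at least 3 lambs and the 3 LLS ewes from the group with litters of fewer than 2 lambs. The assay reads the 3′ ends of RNA molecules and counts each molecule once by its unique molecular identifier (UMI). Levels are given as UMI of a gene per 10000 UMI of all cells of a type in a ewe, as mean ± SD over ewes, and levels of different genes were not ranked. A ratio of 2 genes is read only across cell types.

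The 6 libraries held 7992 to 9135 barcodes, with 43329214 to 75549906 UMI in all. After filtering and removal of called doublets, 36457 cells were retained, 5189 to 7096 in a ewe. Clusters were formed without any complement gene and named from marker genes, as "-like" cells, so that the genes described here did not place the cells. These rebuilt names can differ from those of the study. The 906 macrophage-like cells had 12 of 13 macrophage markers highest among the 6 types compared. The same held for 7 of 8 markers in 8278 stromal-like cells, 11 of 11 in 2800 granulosa-like cells, 9 of 9 in 14877 endothelial-like cells and 14 of 15 in 2675 perivascular-like cells. In 1927 theca-like cells it held for 5 of 8 markers. The same markers had given the names, so these counts describe the types and do not test their names. Each pair of libraries shared 5 to 16 cell barcodes among the retained cells. Only 26 macrophage-like cells came from HLS 1, against 122 to 241 in the other ewes.

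By level, the 8 genes fell into a macrophage group, with C1QA, C1QB, C1QC and CFD, a stromal pair, C1R and C1S, and C7, which was highest in perivascular-like cells and next in stromal-like cells. C3 was higher in both macrophage-like and stromal-like cells. Of the 8 genes, 5 were higher in macrophage-like cells than in the mean of the other 5 types (edgeR quasi-likelihood test, adjusted p under the threshold of 0.05), where 27.6% of the 14320 genes tested were higher. In macrophage-like cells 2 genes were lower, C1S and C7, against 39.1% of all genes. C1QA, C1QB and C1QC stood at only 0.0161, 0.0127 and 0.0171 in the mean of the other types. The filter on low counts keeps a gene counted in 1 type alone, so these chains could enter through macrophage-like cells alone. The 8 genes were also chosen with earlier results of these data known. Their counts beside the shares of all genes therefore describe the list and are no test of it. In stromal-like cells 4 genes were higher, C1R, C1S, C3 and C7 (28.8% of all genes), and 3 were lower (20.6%). Perivascular-like cells had 3 higher, C1R, C1S and C7 (26.2%), and 5 lower (21.6%). In theca-like cells C7 was higher (32.5%) and 6 genes were lower (27.9%). Granulosa-like cells had all 8 genes lower (24.0%) and endothelial-like cells 7 lower (31.1%), and in neither type was one of the 8 higher (27.2% and 32.8% of all genes). Each contrast sets a type against 5 others on the log2 scale, so a gene that is very high in 1 type raises the mean against which the other types are set. For the C1q chains the lower calls in the other 5 types arose with macrophage-like cells in that mean. The same held for the lower calls of CFD, whose mean level was 25.9 in macrophage-like cells. In granulosa-like cells CFD stood at 0.0921, above perivascular-like (0.0568), endothelial-like (0.0219) and theca-like cells (0.0177). The lower call of CFD in granulosa-like cells therefore does not place them below each of the other types.

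**Figure D1:**
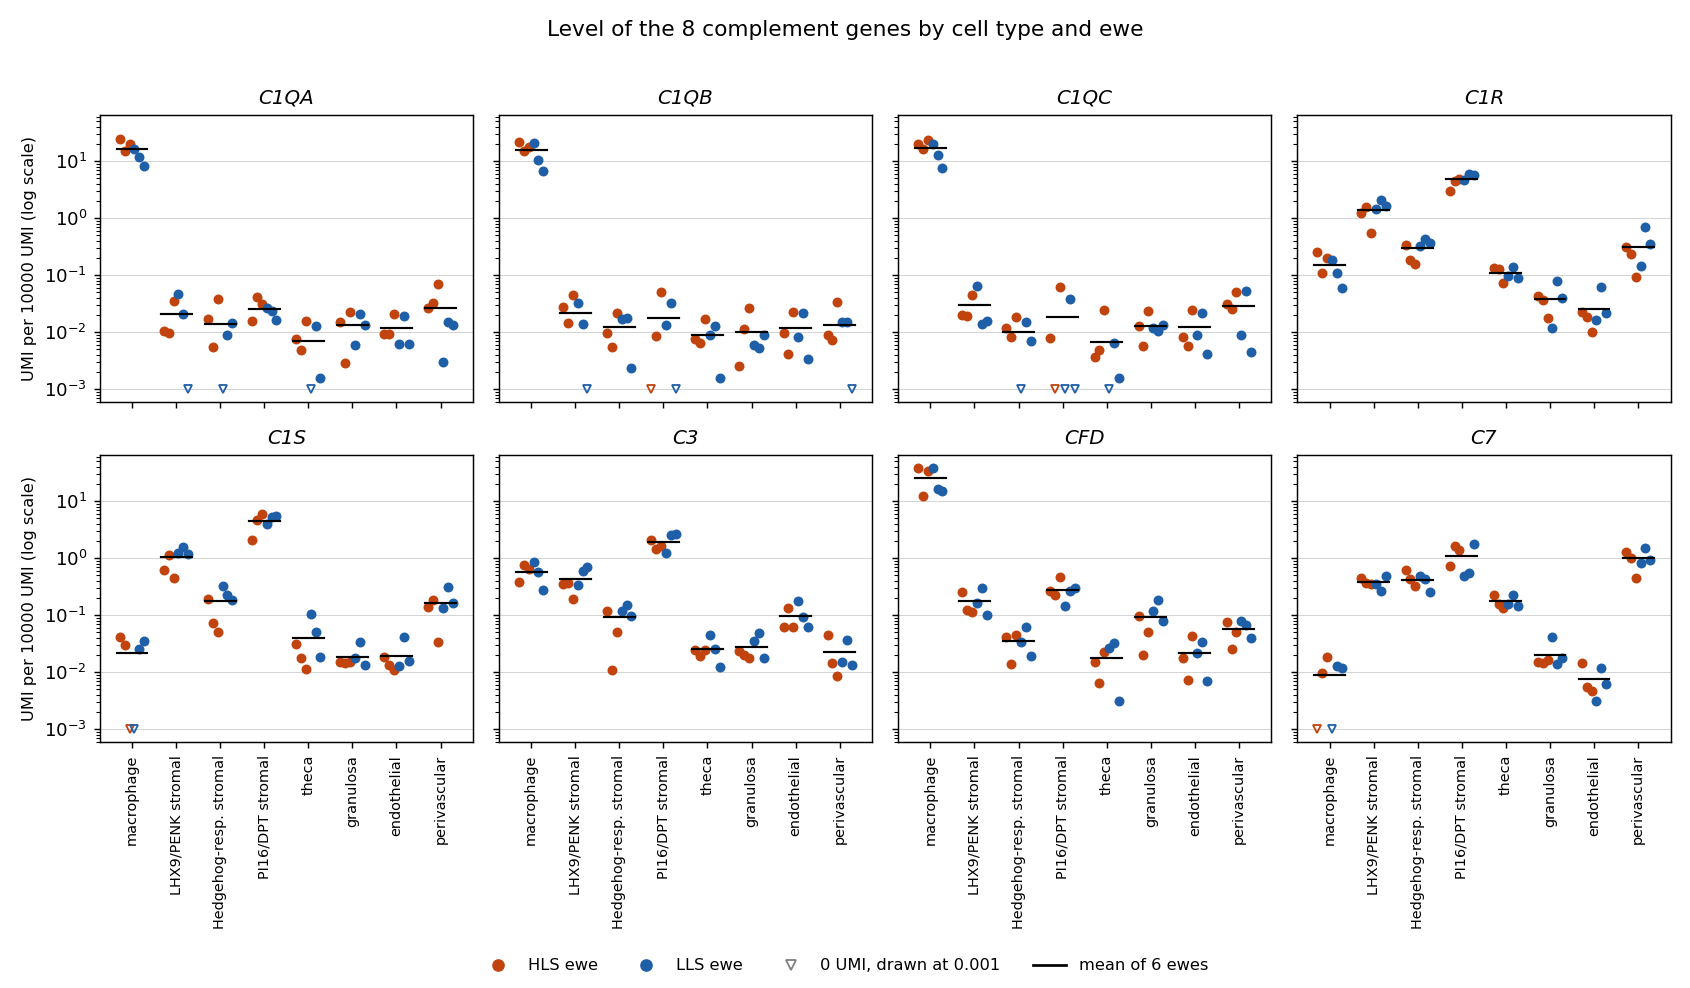
Level of each gene (UMI per 10000 UMI, log scale) in 8 cell types, with 1 point per ewe and a line at the mean of 6 ewes; open triangles mark sums without a UMI. C1QA, C1QB, C1QC and CFD stand highest in macrophage-like cells of every ewe, and C1R and C1S stand highest in the PI16 and DPT stromal-like cells of every ewe.

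C1QA, C1QB and C1QC, the 3 chains of C1q, were read almost wholly from macrophage-like cells. C1QA stood at 24.6, 15.1 and 20.4 UMI per 10000 in macrophage-like cells of HLS 1, 2 and 3, and at 16.7, 11.8 and 8.19 in LLS 1, 2 and 3. C1QB stood at 21.4, 15.1 and 17.9 in the HLS ewes and at 21.0, 10.6 and 6.81 in the LLS ewes. C1QC stood at 20.2, 16.6 and 24.0 in the HLS ewes and at 19.8, 13.02 and 7.53 in the LLS ewes. LLS 3 was the lowest ewe for all 3 chains.

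The highest sum of the 3 chains in any of the other 5 types was 0.1555 UMI per 10000, in perivascular-like cells of 1 ewe. Against the mean of the other types, C1QA was higher in macrophage-like cells by 10.32 on the log2 scale (SE 0.16, adjusted p = 3.81e-32), C1QB by 10.59 (SE 0.16, adjusted p = 3.81e-32) and C1QC by 10.36 (SE 0.15, adjusted p = 2.03e-32). Macrophage-like cells were 2.52% of a ewe's cells on average and held 93.7% ± 3.02 of the UMI of C1QA, 93.7% ± 3.18 of C1QB and 93.5% ± 3.89 of C1QC (SD, n = 6 ewes).

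Within macrophage-like cells all 3 chains were found together in 29.6% of the cells of LLS 3 and in 73.1% of the 26 cells of HLS 1, with the other ewes between 46.7% and 66.8%. When each cell was thinned to 1000 UMI, C1QA was seen in 45.9% of macrophage-like cells (58.9% unthinned), and in 28.1% to 65.4% by ewe. In T or NK-like cells, which should lack C1q, the thinned share was 0.414% (1.32% unthinned). Their median depth was 2366.5 UMI, against 6282.5 in macrophage-like cells. Stromal-like, granulosa-like and endothelial-like cells had thinned shares of 0.249%, 0.298% and 0.252% for C1QA, below that of the T or NK-like cells. For C1QC the thinned share was 0.433% in perivascular-like cells, above the 0.366% of T or NK-like cells. The source of these low shares was not tested.

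The summed level of the 3 chains in the other types was a small part of that in the macrophage-like cells of the same ewe. It came to 0.131% ± 0.0591 in stromal-like, 0.0468% ± 0.0348 in theca-like, 0.0853% ± 0.0491 in granulosa-like, 0.0787% ± 0.0557 in endothelial-like and 0.141% ± 0.0829 in perivascular-like cells (SD, n = 6 ewes). C1QA made up 32.4% of the UMI of the 3 chains in macrophage-like, 32.9% in stromal-like, 34.1% in endothelial-like, 37.3% in granulosa-like, 30.4% in theca-like and 38.7% in perivascular-like cells, the last 2 from 69 and 75 UMI in all. In dendritic-like cells, with 112 UMI of C1QA, 152 of C1QB and 156 of C1QC, it made up 26.7%. There were 2.32 UMI of C1q for 1 UMI of the macrophage marker TYROBP in macrophage-like cells, 2.03 in theca-like, 2.31 in endothelial-like, 2.59 in perivascular-like, 3.14 in granulosa-like and 3.90 in stromal-like cells. The 13 macrophage markers summed to 78.8 to 94.0 UMI per 10000 in macrophage-like cells of a ewe and to 0.0981 to 2.40 in the other 5 types, with the highest values in endothelial-like cells. STAB1, one of these markers, stood at 0.567 in endothelial-like and 0.561 in macrophage-like cells, pooled over ewes. MARCO, another, was at 0 in stromal-like, theca-like, granulosa-like and perivascular-like cells, but had only 19 UMI in all macrophage-like cells. The part of free RNA and of cells of another type in these low values was not tested.

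**Figure D2:**
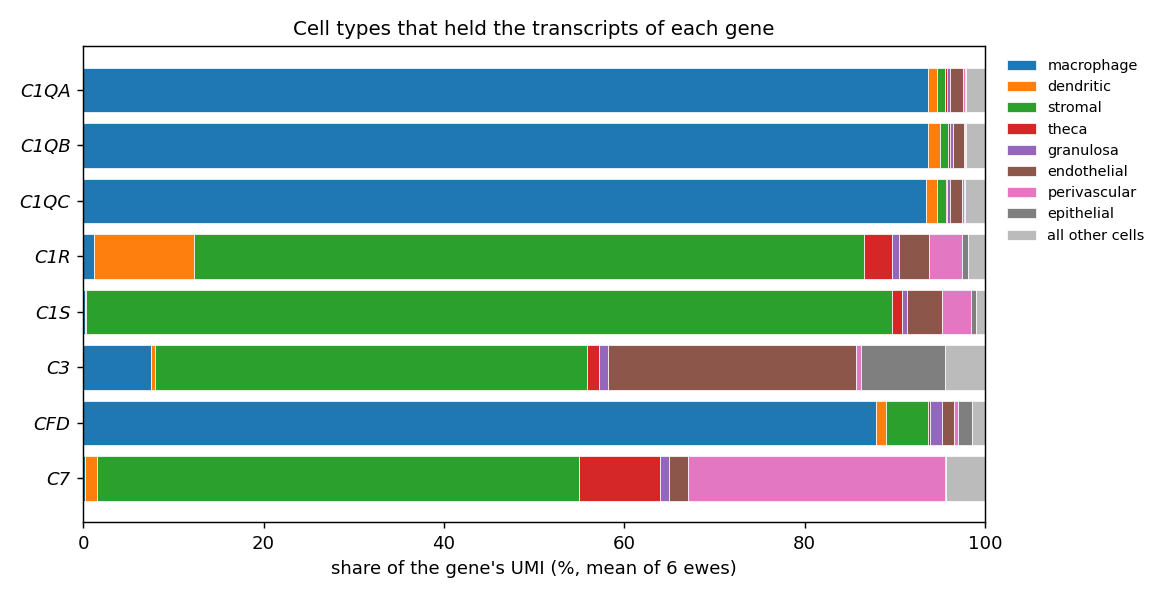
Share of the UMI of each gene held by each cell type (%, mean of 6 ewes), with all other named and unnamed cells in grey. Macrophage-like cells hold 93.7% of C1QA and 87.9% of CFD, and stromal-like cells hold 89.4% of C1S and 74.2% of C1R.

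Macrophage-like cells were not uniform in C1q, as seen when immune-like cells were clustered again without complement genes. These levels pool ewes and carry no test. The sub-cluster led by S100A8, F13A1 and LYZ (i3, 176 cells) had only 1.03 UMI of C1QA, 0.758 of C1QB and 0.712 of C1QC per 10000. On the marker list used for naming, F13A1 and LYZ stand for macrophages, but S100A8 stands for neutrophils or monocytes. The sub-cluster led by the class II genes DQA and CD74 (i1, 328 cells) had 14.98 of C1QA, 16.7 of C1QB and 18.6 of C1QC. In the sub-cluster led by GPNMB and the lysosomal proteases CTSL and CTSD (i12, 86 cells), C1QA stood at 25.6. The highest C1q was in 17 cells led by FOLR3 and CR2 (i20), 13 of them from HLS 2, with 61.6 UMI of C1QC per 10000 (95% exact Poisson interval 58.0 to 65.4, counting error only).

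The makeup of the macrophage-like cells differed between ewes. The i3 cells made up 33.6% of them in HLS 2 and 3.96% in LLS 2, and the sub-cluster led by CXCL8, IL1B and CXCL1 (i7, 150 cells, C1QA at 8.88) made up 46.0% in LLS 2, 31.1% in LLS 3 and 0% to 4.92% in the other 4 ewes. In LLS 3, where C1q was lowest, the level of C1QA was 8.78 within i1, the lowest of 5 ewes with at least 10 such cells, and 4.90 within i7, against 10.8 in LLS 2. Within i3 it was 0.0893 in LLS 3, against 0.593 to 1.94 in the other ewes with at least 10 such cells. Within i9, the sub-cluster led by CFD, C1QA was not low in LLS 3. It stood at 20.9 in 12 cells, above HLS 2 (17.8) and HLS 3 (13.7) and below LLS 1 (21.9). The part of makeup in the level of a ewe was not tested.

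C1R and C1S encode the paired proteases of the C1 complex, and the genes lie next to each other in the RefSeq annotation of ARS-UI_Ramb_v3.0. C1R stood at 1.115, 1.41 and 0.910 UMI per 10000 in stromal-like cells of HLS 1, 2 and 3, and at 1.75, 3.01 and 1.26 in LLS 1, 2 and 3. C1S stood at 0.623, 1.17 and 0.946 in the HLS ewes and at 1.51, 2.58 and 0.990 in the LLS ewes. LLS 2 was highest for both genes.

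In stromal-like cells C1R was 4.13 higher on the log2 scale than in the mean of the other types (SE 0.16, adjusted p = 5.74e-20), and C1S was 5.34 higher (SE 0.17, adjusted p = 2.93e-22). Perivascular-like cells came next, with C1R at 0.309 ± 0.219 and C1S at 0.162 ± 0.0908 UMI per 10000. Both genes were lower in perivascular-like than in stromal-like cells of 6 of 6 ewes (two-sided exact sign-flip permutation over ewes, p = 0.03125, which 6 ewes cannot go below). Over the 40 such tests of neighbouring types none passed after adjustment, and the adjusted p of these 2 was 0.0893. With 14 of the 40 pairs at the floor of p, the adjustment could bring none of them under 0.05. C1QB in macrophage-like against stromal-like cells, 9.94 apart on the log2 scale, had the same adjusted p. The lack of a pass therefore does not tell which neighbours differ.

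The 3 stromal subtypes, named for PI16 and DPT (adventitial-type fibroblast genes), for LHX9 and PENK, and for Hedgehog target genes, formed 3 steps. C1R stood at 4.81 ± 1.08 UMI per 10000 in PI16 and DPT stromal-like cells, at 1.42 ± 0.519 in LHX9 and PENK stromal-like cells and at 0.301 ± 0.108 in Hedgehog-responsive stromal-like cells (SD, n = 6 ewes). C1S stood at 4.58 ± 1.39, 1.04 ± 0.425 and 0.176 ± 0.102 in the same order. The values of the 6 ewes did not overlap between neighbouring subtypes for either gene, with the lowest PI16 and DPT value at 2.98 for C1R and the highest LHX9 and PENK value at 2.13. This order describes the clusters and was not tested, and C1S was itself among the leading genes of the PI16 and DPT cluster, although it did not form it.

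Both proteases were found in the same cell for 69.0% ± 13.2 of PI16 and DPT stromal-like cells (SD, n = 6 ewes), where C1R was found in 82.2% and C1S in 78.9%. The share with both was 17.4% ± 5.75 in LHX9 and PENK and 5.32% ± 3.51 in Hedgehog-responsive stromal-like cells. The UMI of C1R for 1 UMI of C1S came to 1.10 ± 0.200 in PI16 and DPT, 1.41 ± 0.310 in LHX9 and PENK and 2.05 ± 0.699 in Hedgehog-responsive stromal-like cells. The 3 ranges over ewes overlapped. After thinning to 1000 UMI, C1R was seen in 15.3% of stromal-like cells (40.9% unthinned, median depth 5180 UMI) and in 0.624% of T or NK-like cells, and C1S in 11.9% and 0.311%.

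C1R was also very high outside the stroma, in a dendritic-like sub-cluster led by BCL2L15, PLAC8, LAMP3 and LY6E (i6, 159 cells). There it stood at 21.7 UMI per 10000 in 135 cells of LLS 2 (95% exact Poisson interval 20.7 to 22.6, counting error only) and at 18.7 in 14 cells of HLS 3. It was found in 99.3% of the LLS 2 cells and in all 14 of HLS 3, while C1S was at 0.0436 UMI per 10000 in the cells of LLS 2. This sub-cluster held 0.436% of all cells and 19.4% of the UMI of C1R, with 40.7% in LLS 2, 13.2% in HLS 3, 9.19% in LLS 3, 0.911% in HLS 2 and 0 cells in HLS 1 and LLS 1. Stromal-like cells held 50.5% of the UMI of C1R in the ewe where their share was lowest and 83.9% where it was highest, with a mean of 74.2%. For C1S the mean was 89.4% and the range 85.8% to 95.3%.

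C3, the central component, was higher in both macrophage-like and stromal-like cells than in the other types of the test. It stood at 0.379, 0.751 and 0.642 UMI per 10000 in macrophage-like cells of HLS 1, 2 and 3 and at 0.859, 0.579 and 0.274 in LLS 1, 2 and 3. In stromal-like cells the HLS ewes had 0.458, 0.364 and 0.304 and the LLS ewes 0.442, 1.22 and 0.524. Macrophage-like cells were higher than stromal-like cells in 3 of 6 ewes, and the difference of 0.15 on the log2 scale was smaller than its SD over ewes (exact sign-flip test, p = 0.781, adjusted p = 0.868).

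Against the mean of the other types, C3 was 3.48 higher on the log2 scale in macrophage-like cells (SE 0.21, adjusted p = 5.69e-16) and 3.11 higher in stromal-like cells (SE 0.18, adjusted p = 6.68e-16). Within the stroma it followed the order of C1R and C1S, with 1.93 ± 0.596 UMI per 10000 in PI16 and DPT, 0.427 ± 0.190 in LHX9 and PENK and 0.0914 ± 0.0515 in Hedgehog-responsive stromal-like cells (SD, n = 6 ewes), again with no overlap of ewes between neighbours. Within the macrophages it was highest in i20 (2.34) and i1 (1.07) and lower in i7 (0.125) and i9 (0.135).

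Endothelial-like cells, the most numerous type, had a low level of C3, at 0.0982 UMI per 10000 on average, which did not differ from the mean of the other types (log2 difference 0.19, SE 0.20, adjusted p = 0.430). Because of their number they held 27.5% ± 19.5 of its UMI (SD, n = 6 ewes), from 4.21% to 55.1%. C3 was 0.177 in LLS 1 and 0.133 in HLS 2 and 0.0615 to 0.0926 in the other ewes. Endothelial-like cluster 1 (4109 cells), with C3 at 0.200 UMI per 10000, drew 55.3% of its cells from LLS 1. When endothelial-like cells were clustered again, C3 stood at 0.213 in a sub-cluster with 98.0% of its cells from LLS 1 and at 0.184 in one with 98.7% from HLS 2. The part of the ewe in these levels was not tested. Thinned to 1000 UMI, C3 was seen in 0.973% of endothelial-like cells (8.72% unthinned, median depth 8498 UMI) and in 0.276% of T or NK-like cells.

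Epithelial-like cells, which were not part of the test between types, had more C3. It stood at 0.707 UMI per 10000 in 16 such cells of HLS 3, at 0.635 in 38 cells of LLS 1, at 6.12 in 228 cells of LLS 2 and at 0.923 in 28 cells of LLS 3, a mean of 2.10 ± 2.68 (SD, n = 4 ewes) that LLS 2 set. Cluster 24, 233 of these cells from 4 ewes with at least 10 each, was at 1.52. The highest C3 of any cluster was in 31 epithelial-like cells of LLS 2 (cluster 33), at 34.4 UMI per 10000 (95% exact Poisson interval 32.2 to 36.7, counting error only). These cells were led by C4BPA, PRG4 and CFB, and with 0.597% of the cells of LLS 2 they held 37.7% of its C3. They also had 3.05 UMI of C1R, 29.8 of CFB, the protease part of the alternative C3 convertase, and 38.7 of C4BPA, an inhibitor of the classical convertase. All 31 came from 1 ewe, so these values have no replicate.

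CFD, the protease factor D of the alternative pathway, was the fourth gene of the macrophage group. It stood at 38.9, 12.6 and 33.7 UMI per 10000 in macrophage-like cells of HLS 1, 2 and 3 and at 38.5, 16.5 and 15.3 in LLS 1, 2 and 3. It was higher there than in the mean of the other types by 9.28 on the log2 scale (SE 0.16, adjusted p = 4.17e-31), and macrophage-like cells held 87.9% ± 4.65 of its UMI (SD, n = 6 ewes). After thinning it was seen in 65.6% of macrophage-like cells (93.2% unthinned) and in 0.786% of T or NK-like cells.

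In the i3 cells led by S100A8, CFD stood at 19.0 UMI per 10000, against 15.5 in i1, whereas C1QA stood at 1.03 in i3, against 14.98 in i1. It peaked in the sub-cluster led by CFD itself and CD300H (i9, 125 cells), at 131 UMI per 10000, and was found in every one of these cells. In the 4 ewes with at least 10 such cells the level was 97.5, 113, 169 and 109 in HLS 2, HLS 3, LLS 1 and LLS 3. C1QA stood at 20.6 in the same cells. The i9 cells made up 3.47% of the macrophage-like cells in LLS 2 and 25.6% in HLS 3. In stromal-like cells CFD was at 0.135 ± 0.0474 UMI per 10000, next after macrophage-like cells among the types of the test. It did not differ there from the mean of the other types, which included macrophage-like cells (log2 difference 0.04, SE 0.18, edgeR adjusted p = 0.874). Outside the test, epithelial-like cells, found in at least 10 cells of 4 ewes, had 1.11 ± 0.847. Dendritic-like cells had 1.38 ± 0.981 (SD, n = 6 ewes). Neutrophil or monocyte-like cells had 1.65 ± 0.368 (SD, n = 3 ewes), from only 15 UMI.

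**Figure D3:**
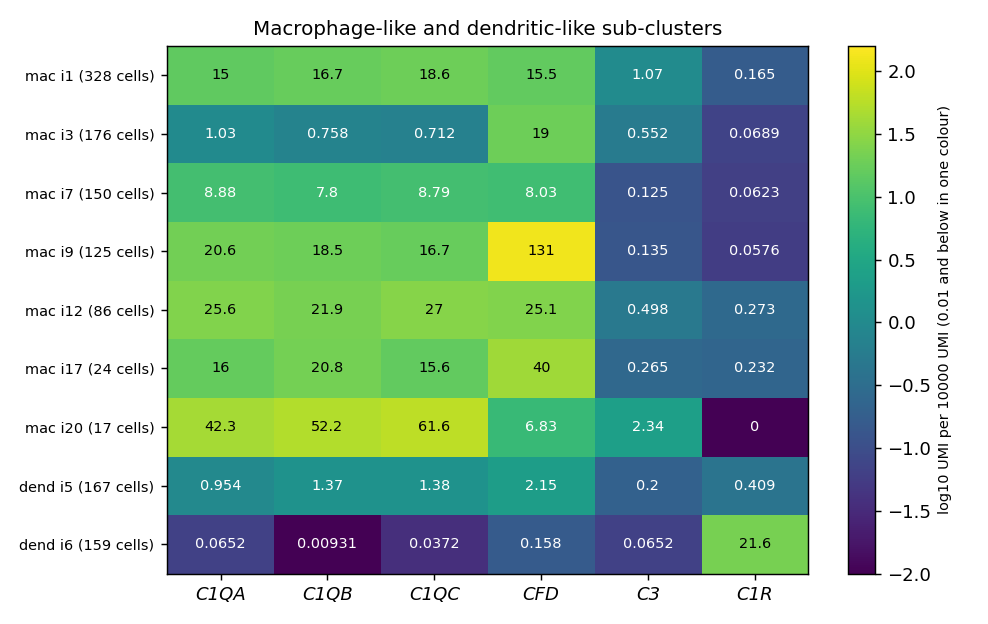
Level of 6 genes (UMI per 10000 UMI, printed in each cell and coloured on a log10 scale) in the sub-clusters of macrophage-like (mac) and dendritic-like (dend) cells, all ewes pooled. CFD reaches 131 in i9, the 3 C1q chains are low in i3 and highest in i20, and C1R reaches 21.6 in the dendritic-like i6.

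C7, a component of the membrane attack complex, was highest in perivascular-like and stromal-like cells among the types of the test. In perivascular-like cells, which join pericytes and smooth muscle of vessels, it stood at 1.001 ± 0.372 UMI per 10000, and in stromal-like cells at 0.531, 0.568 and 0.466 in HLS 1, 2 and 3 and at 0.392, 0.448 and 0.466 in LLS 1, 2 and 3. Against the mean of the other types it was 4.44 higher on the log2 scale in perivascular-like cells (SE 0.15, adjusted p = 1.03e-21), 3.35 higher in stromal-like cells (SE 0.15, adjusted p = 3.01e-18) and 1.70 higher in theca-like cells (SE 0.19, adjusted p = 3.98e-09). The theca-like level of 0.175 was nonetheless below the plain mean of the other types, 0.303.

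Perivascular-like cells were above stromal-like cells in 5 of 6 ewes (log2 difference 0.98, SD 0.59, exact p = 0.0625, adjusted p = 0.147). Pericyte-like cells had 1.18 ± 0.441 and smooth muscle-like cells 0.679 ± 0.409 UMI per 10000. The stromal subtypes did not form the steps seen for C1R. C7 was at 1.10 ± 0.582 in PI16 and DPT, 0.380 ± 0.0816 in LHX9 and PENK and 0.422 ± 0.127 in Hedgehog-responsive stromal-like cells, and the ewes of all 3 subtypes overlapped. Theca-like cells, which make androgens, had 0.175 ± 0.0414 and held 8.98% of the UMI of C7, against 53.5% for the stromal-like and 28.5% for the perivascular-like cells. The gene was near 0 in macrophage-like cells, with 7 UMI in all 906 cells. In the dendritic-like sub-cluster i6, outside the test, C7 stood at 0.559 UMI per 10000 with ewes pooled, beside a stromal-like mean of 0.479. It was at 0.866 in 14 cells of HLS 3 and at 0.523 in 135 cells of LLS 2.

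Of the other 42 complement genes, 24 passed the filter on low counts in the fit across types. Macrophage-like cells had 13 of the 24 higher and 6 lower, beside 27.6% and 39.1% of all genes. The filter keeps a gene that is counted in 1 type alone. A gene such as CFP, at 0.00520 in the mean of the other types, could thus enter through macrophage-like cells alone. It was then counted as higher there, so this count describes the list and is no test of it. Those higher included CFP, the properdin that stabilises the alternative convertase (1.64 ± 0.291 UMI per 10000, log2 difference 8.71, SE 0.15), and C5AR1, a receptor for the anaphylatoxin C5a (3.91 ± 1.499, log2 difference 8.26, SE 0.20). Stromal-like cells had 7 higher and 5 lower, beside 28.8% and 20.6% of all genes, and perivascular-like cells 6 and 5, beside 26.2% and 21.6%. These shares are near those over all genes. In both types the lectin-pathway collectins COLEC11 and COLEC12 and SERPING1, the inhibitor of C1r and C1s, were among those higher. SERPING1 stood at 1.10 ± 0.282 in the former and 1.46 ± 0.407 in the latter.

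Endothelial-like cells had 8 of the 24 higher and 11 lower, beside 32.8% and 31.1% of all genes. The share higher was near that over all genes. These cells had the highest CD59, which blocks the membrane attack complex, at 8.18 ± 1.17 UMI per 10000 (log2 difference 2.84, SE 0.12). They were also higher in CD46, a cofactor for the cutting of C3b (2.52 ± 0.591), in CFB (0.253 ± 0.111) and in CFI, the protease that inactivates C3b (0.469 ± 0.255). CFB was uneven among the endothelial-like clusters. With ewes pooled, it stood at 1.11 in lymphatic endothelial-like cells and at 0.339 and 0.382 in clusters 2 and 3. In clusters 1 (4109 cells) and 18 it stood at only 0.00548 and 0.00368. CD46 was higher in macrophage-like (log2 difference 0.53) and granulosa-like cells (0.34) as well. SERPING1 was lower in endothelial-like cells (log2 difference -3.16, SE 0.25). Theca-like cells had 5 higher and 13 lower, beside 32.5% and 27.9% of all genes, among the former C5 at 0.177 ± 0.113. Granulosa-like cells had 4 higher and 6 lower, beside 27.2% and 24.0% of all genes, with C1QBP at 2.44 ± 0.386, a protein named for C1q binding but best known from mitochondria. C1QBP was also higher in theca-like cells, at 2.37 on average. Its log2 difference was 1.07 (SE 0.12) there and 0.86 (SE 0.12) in granulosa-like cells. C8G, of the membrane attack complex, was higher in endothelial-like cells, at only 0.0255 ± 0.00918. The median log2 difference of the 24 genes was 0.99 in macrophage-like and -1.62 in endothelial-like cells, beside -0.25 and -0.01 over all genes tested. These medians also rest on a filter that keeps genes counted in 1 type alone.

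Over the 36 sums of a type in a ewe, other genes were ranked by the Pearson correlation of their log2 level with each of the 8, as a description without a test, since the sums share ewes, libraries and types. TYROBP, an adaptor of myeloid receptors, was the most alike for C1QA (r = 0.976), C1QB (r = 0.975) and C1QC (r = 0.980), followed by genes such as DQA, IL1RN and CD83. For CFD these were LSP1 (r = 0.968), CD83 (r = 0.959) and FGD2 (r = 0.946). C1R was most like GLT8D2 (r = 0.881), LOC121816115 and ADAM33, C1S like PDGFRL (r = 0.916), ISLR and the collagen gene COL6A3, and C7 like OLFML1 (r = 0.959), PCDH18 and FGF1. C3, with its mixed pattern, had the weakest best match among these after C1R, IGF1 (r = 0.886), ahead of GAS7 and CELF2. Among the 8, CFD followed C1QC (r = 0.96), C1R followed C1S (r = 0.82), and C3 had r = 0.67 to CFD, 0.61 to C1QC, 0.45 to C1R, 0.28 to C1S and -0.20 to C7.

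HLS and LLS ewes were then compared within each type, which is the question the litter-size groups pose. None of the 8 genes passed the edgeR test in any of the 6 types or the 3 stromal subtypes, and the lowest adjusted p was 0.824, for genes in stromal-like cells. DESeq2 called 0 of the 8 as well. Over all genes, 0% were called in the 6 types, and 1 of 12250 genes (0.00816%) in LHX9 and PENK stromal-like cells. Before adjustment, p was under 0.05 for 1 of the 6 genes tested in macrophage-like (5.76% of all genes), 1 of 8 in stromal-like (4.77%) and 1 of 6 in LHX9 and PENK stromal-like cells (5.49%). It was under 0.05 for 0 of 5 in theca-like (3.35%), 0 of 2 in granulosa-like (5.3%), 0 of 8 in endothelial-like (1.44%), 0 of 4 in perivascular-like (3.55%), 0 of 5 in Hedgehog-responsive (4.55%) and 0 of 5 in PI16 and DPT stromal-like cells (2.82%).

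**Figure D4:**
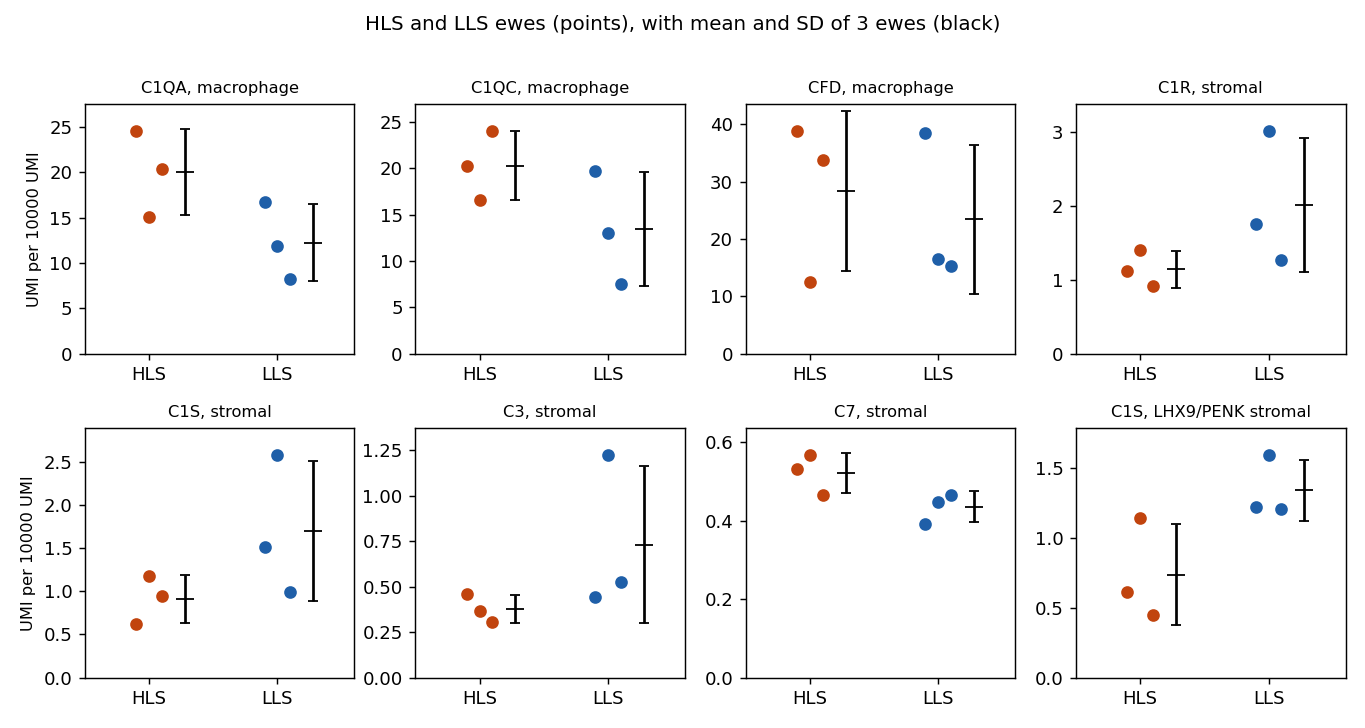
Level (UMI per 10000 UMI, axis from 0) in HLS and LLS ewes (points) with mean and SD of 3 ewes in black. Shown are C1QA, C1QC and CFD in macrophage-like cells, C1R, C1S, C3 and C7 in stromal-like cells, and C1S in LHX9 and PENK stromal-like cells. The groups overlap in each panel except C7 in stromal-like cells, where the lowest HLS and the highest LLS ewe are both near 0.466, and C1S in LHX9 and PENK stromal-like cells.

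C1QA had a mean of 20.02 ± 4.74 UMI per 10000 in macrophage-like cells of HLS and 12.2 ± 4.26 in those of LLS ewes (SD, n = 3 each; log2 difference 0.81, SE 0.36, edgeR adjusted p = 0.845). C1QB and C1QC leaned the same way, by 0.61 (SE 0.40) and 0.68 (SE 0.37), and the groups overlapped for all 3 chains. CFD was at 28.4 ± 13.9 in HLS and 23.4 ± 13.04 in LLS ewes (log2 difference 0.41, SE 0.49, edgeR adjusted p = 0.910). Without HLS 1, which had 26 macrophage-like cells, the difference of CFD was -0.01.

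In stromal-like cells C1R, C1S and C3 leaned towards LLS. C1R was at 1.14 ± 0.250 in HLS and 2.01 ± 0.901 in LLS ewes (log2 difference -0.71, SE 0.32), C1S at 0.913 ± 0.275 and 1.69 ± 0.810 (log2 difference -0.82, SE 0.32, edgeR adjusted p = 0.824), and C3 at 0.376 ± 0.0776 and 0.730 ± 0.430 (log2 difference -0.83, SE 0.39). LLS 2 carried the highest value of each, and 45.1% of its stromal-like cells were of the PI16 and DPT subtype, against 11.3% to 16.7% in the other 5 ewes; the part of this makeup in the differences was not tested. Without LLS 2 the 3 differences came to -0.32, -0.41 and -0.26. Within the PI16 and DPT stromal-like cells the differences were -0.33 (SE 0.26), -0.19 (SE 0.32) and -0.21 (SE 0.32). Within LHX9 and PENK stromal-like cells they were -0.49 (SE 0.35), -0.77 (SE 0.30) and -0.72 (SE 0.33). Hedgehog-responsive stromal-like cells had -0.58 (SE 0.34), -0.95 (SE 0.50) and -0.81 (SE 0.62).

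Of all pairs of a gene and a type or subtype, 2 had groups of ewes that did not overlap. C7 in stromal-like cells stood at 0.522 ± 0.0514 in HLS and 0.435 ± 0.0390 in LLS ewes (log2 difference 0.36, SE 0.17, edgeR adjusted p = 0.824), where 9.64% of all genes did not overlap. C1S in LHX9 and PENK stromal-like cells stood at 0.616, 1.14 and 0.451 in HLS 1, 2 and 3 and at 1.22, 1.59 and 1.21 in LLS 1, 2 and 3 (log2 difference -0.77, SE 0.30, edgeR adjusted p = 0.866), where 9.94% of all genes did not overlap. In the remaining types 0 of the genes tested had groups without overlap, where the share over all genes was 11.4% in macrophage-like, 10.3% in theca-like, 15.4% in granulosa-like, 4.49% in endothelial-like, 9.4% in perivascular-like, 10.7% in Hedgehog-responsive and 7.46% in PI16 and DPT stromal-like cells. Of the other complement genes, 0 were called by edgeR in any type or stromal subtype. Their unadjusted p was under 0.05 for 1 of 15 tested in macrophage-like (5.76% of all genes), 2 of 16 in stromal-like (4.77%), 2 of 12 in theca-like (3.35%) and 1 of 11 in granulosa-like cells (5.3%). It was so for 1 of 10 in LHX9 and PENK (5.49%) and 1 of 9 in Hedgehog-responsive stromal-like cells (4.55%). In endothelial-like (1.44%), perivascular-like (3.55%) and PI16 and DPT stromal-like cells (2.82%) it was so for 0. Groups without overlap were found for 3 of 16 in stromal-like (9.64% of all genes), 2 of 12 in theca-like (10.3%), 3 of 11 in granulosa-like (15.4%) and 1 of 9 in perivascular-like cells (9.4%). They were found for 2 of 10 in LHX9 and PENK (9.94%) and 1 of 9 in Hedgehog-responsive stromal-like cells (10.7%), and for 0 in the other 3 (4.49% to 11.4%). CD46 was one of them in each of these but theca-like cells, lower in HLS each time (edgeR adjusted p 0.824 to 0.986). The stromal subtypes are part of the stromal-like cells, so these counts are not separate.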

How the data were processed

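Ovarian cells of 6 Hu ewes (3 HLS, 3 LLS) were profiled by droplet-based single-cell RNA sequencing. The authors deposited raw UMI counts per gene and barcode for each library, made with Cell Ranger 5.0.0 and the STAR aligner, and no deposited barcode held under 500 UMI. The genome build was not given in the sources used here. Barcodes were kept with at least 200 genes, at least 1000 UMI, at most 10% mitochondrial and at most 5% haemoglobin UMI, and doublets simulated from the counts were used to call 5.22% of the cells as doublets, in place of the study's caller. The 36457 cells retained were clustered on 2000 variable genes without complement genes (leidenalg 0.10.2, resolution 0.8), which gave 35 clusters. Clusters were named from a marker list by a scoring rule set after the clusters were seen. Several endothelial-like clusters were drawn mostly from 1 ewe.

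Counts were summed per ewe and type over at least 10 cells and tested with edgeR 4.0.16 (quasi-likelihood test, TMM factors, filterByExpr, Benjamini-Hochberg adjustment over all genes tested, threshold 0.05). Types were compared with the ewe as a block, and HLS with LLS within each type. DESeq2 1.42.0 was an alternative. Other alternatives changed the doublet, mitochondrial, resolution, filter, scaling, thinning and cell number settings, left out each ewe and used the replicate number as a block. Leaving out sub-clusters led by another lineage (3326 cells) was added after seeing the data. On simulated data the macrophage-like contrast recovered 82% of 2-fold and 99% of 4-fold changes, and the HLS against LLS test in stromal-like cells 49% and 96%. In macrophage-like cells the latter recovered 21% and 95%. The simulated counts were drawn from the mean level of each gene with a trended spread. They held no ewe effects, no other differences between types and no differences in cell makeup. The shares recovered can therefore differ from those in the data. The ewe was the replicate, and exact intervals cover counting error only. The genes and lists were chosen with earlier results of these data known. Named were the 8 genes, the 2 other complement genes with the highest summed level in each role group, the 3 genes most alike each of the 8, and genes that lead a cluster. C4A, C4B, CLU, CR1, FCN1 and FCN2 were among the listed genes not analysed here. Genes listed without a symbol were matched by gene ID in the RefSeq annotation of ARS-UI_Ramb_v3.0. Its coordinates were used only to find the order of genes.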

Additional observations from a re-analysis of the deposited data

Results flagged for a closer look

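In 3 of 43 groups of 6 ewes tested, 1 ewe stood apart from the others by Dixon's test, where chance gives about 1 in 20. The ewe was LLS 2 each time. C1R in its endothelial-like cells was at 0.0614 UMI per 10000, with the next ewe at 0.0229. C1S in the same cells was at 0.0422, with the next ewe at 0.0188. C3 in its stromal-like cells was at 1.22, with the next ewe at 0.524. Beside these values, LLS 2 had the fewest UMI of the 6 libraries (43329214), 45.1% of its stromal-like cells were PI16 and DPT stromal-like cells, and its C1R and C1S levels in stromal-like cells were the highest of the 6 ewes. The part of these in the 3 values was not tested.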

How the results depend on the processing

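The 44 contrasts of a gene between types that passed the test gave 748 values under the alternatives, of which 730 kept their direction and call, 18 kept their direction without the call and 0 reversed. With cells thinned to 1000 UMI, the number of the 8 genes lower was 0 in stromal-like (3 unthinned), 5 in granulosa-like (8), 4 in endothelial-like (7) and 2 in perivascular-like cells (5), a setting that leaves far fewer UMI. In stromal-like cells the log2 differences were then -1.44 for C1QA, -0.70 for C1QB and -1.17 for C1QC, against -1.46, -1.33 and -1.31 unthinned, and C1QB (-0.52) and C1S (-0.65) lost their call in theca-like cells. C1S in theca-like cells lost its call without HLS 2 (adjusted p = 0.0513), without LLS 3 (adjusted p = 0.0546) and at double the resolution (adjusted p = 0.0931), and C1QC in stromal-like cells with doublets kept (adjusted p = 0.0660); the cause was not tested. After thinning, the share of cells with a UMI was 15.3% for C1R and 11.9% for C1S in stromal-like, 6.36% for C3 and 65.6% for CFD in macrophage-like and 8.92% for C7 in perivascular-like cells. With doublets kept, stromal-like cells held 85.6% of the UMI of C1S.

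None of the 8 genes differed between HLS and LLS under any of 18 alternatives. Some log2 differences, none of which passed a test, changed sign. CFD in macrophage-like cells came to -0.012 with sums of at least 30 cells, which drops HLS 1, and ranged from -0.012 to 0.90 with 1 ewe left out. C3 there came to -0.14 with doublets kept and -0.094 at a mitochondrial limit of 20%, with a leave-one-out range of -0.19 to 0.45. C7 came to 0.018 in perivascular-like cells at the limit of 20% (range -0.47 to 0.22), and in theca-like cells to -0.0065 at double the resolution and -0.031 without TMM factors (range -0.21 to 0.44). C3 in endothelial-like cells ranged from -0.69 to 0.27. The cause was not tested. Over all genes, DESeq2 called 27 in macrophage-like cells and 0 to 4 elsewhere, and no filter on low counts gave 147 in macrophage-like, 45 in theca-like, 7 in perivascular-like, 37 in LHX9 and PENK, 92 in Hedgehog-responsive and 57 in PI16 and DPT stromal-like cells, against 0 or 1 with edgeR, the filter and all ewes. Without HLS 3 edgeR called 9 in macrophage-like cells, and without LLS 1 it called 2 in stromal-like cells.

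The labels number the ewes 1 to 3 in both groups. Deviations of same-numbered ewes correlated at -0.293 to 0.283, with 3 of 18 pairs over 0.1. These 3 were all of the ewes numbered 3, in stromal-like (0.104), granulosa-like (0.170) and endothelial-like cells (0.283). With 3 ewes in a group, whether same-numbered ewes share more than a number cannot be told. With the replicate block, 0 of the 8 genes were called, C1QA in macrophage-like cells stood at 0.79 (adjusted p = 0.869), and 2 genes in all were called there.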
